A study of Mus musculus with 3 samples.

Results

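The p53 group described here holds 10 mouse genes, named as a set and looked up by symbol in the gene column of the deposited peak lists of a nucleoporin ChIP-seq study. They are Trp53, which encodes p53, its negative regulators Mdm2 and Mdm4, the cell cycle and stress genes Ccng1, Gadd45a, Gadd45g and Sesn2, and the apoptotic genes Bbc3, Pmaip1 and Bax. The lists gave these genes 11 of 16113 Seh1 peaks and 1 of 5314 IgG peaks. All cells were primary neural stem cells of wild type genotype, cultured from newborn mouse cortex in growth medium with EGF and bFGF, and fixed with formaldehyde at the proliferating stage. The groups were chromatin precipitated with an antibody to the nucleoporin Seh1, chromatin precipitated with IgG as background control, and unprecipitated input, with 1 library each. Separate values of the input were not analysed here. Per the file headers, the names of both peak sets pair the library with the input.

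p53 is a transcription factor that is kept low in unstressed cells by Mdm2, a ubiquitin ligase, together with its relative Mdm4. After DNA damage or other stress p53 accumulates and activates genes that stop the cell cycle, support repair or trigger apoptosis through mitochondria. Neural progenitors are known for being prone to p53-dependent apoptosis. Seh1 is a subunit of the nuclear pore, and the series title names p21, the product of the p53 target Cdkn1a, as a gene that Seh1 represses.

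A row in these lists is a peak with a position, a width and an annotation. Its gene is that of the nearest transcription start site (TSS), and the signed distance runs from the TSS to the peak centre, negative upstream. The deposited score is 0 in every row, so no peak height, enrichment or depth is known. With 1 library per group there is no replicate error and no test between groups. The cell type could not be checked against its markers, because peak positions carry no expression level. Coordinates are those of mm10.

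Seh1 peaks were given to 6 of the 10 genes, namely Mdm4, Ccng1, Gadd45a, Gadd45g, Bbc3 and Pmaip1. No row was given to Trp53, Mdm2, Sesn2 or Bax. Over all 21779 protein-coding genes, 31.9% were given a Seh1 peak, and the share of 60% among these 10 genes had a 95% exact binomial interval of 26.2 to 87.8%. That interval holds the background share. IgG peaks were given to 1 of the 10 genes, Ccng1, beside 11.3% of all protein-coding genes. None of the 12 peaks lay inside one of the 10 genes. Over all protein-coding genes, 13.8% had a Seh1 peak in an exon or intron of their own transcript, and the IgG share was not computed. None of the 12 peaks lay within 1 kb of a TSS either, where 1.92% of all Seh1 and 0.715% of all IgG peaks lay. Thus 0 of 12 is near the background.

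**Figure D1:**
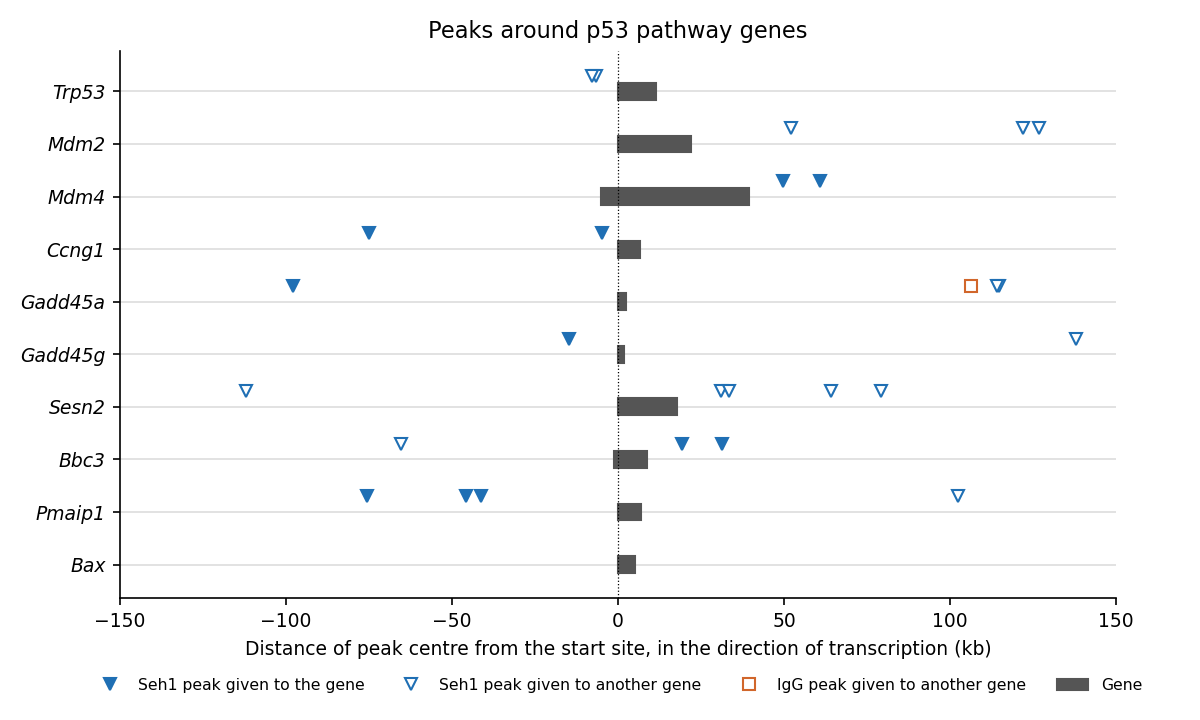
Peaks within 150 kb of the start site of each gene, with distance in kb along the direction of transcription. Filled triangles are Seh1 peaks given to the gene, open triangles are Seh1 peaks given to another gene, the open square is an IgG peak given to another gene, and grey bars are the genes. No symbol stands over a grey bar, and the Bax row is empty.

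Of p53 and its regulators, Trp53 (chromosome 11, positions 69580348 to 69591873, plus strand) had no row in either list. Its neighbourhood was not empty, however. A pair of Seh1 peaks lay upstream of it, from 69573438 to 69573738 (301 bp wide) and from 69572358 to 69572600 (243 bp wide), with centres 6.76 and 7.87 kb from the 5′ end of Trp53. Both sat in intron 4 of 10 of Wrap53, a gene whose annotated end is 0.097 kb from Trp53 and which encodes a protein of Cajal bodies and telomerase, and both were given to Wrap53. Their centres carried SINE labels of the B2 family, B2_Mm1a and B3. The nearest IgG peak was 267 kb away, in an intron of Cntrob.

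Mdm2, which encodes the ubiquitin ligase that marks p53 for degradation, lies on chromosome 10 from 117688875 to 117710758 on the minus strand. It had no row in either list. The nearest Seh1 peak, from 117658604 to 117658865, was 262 bp wide and lay 30.1 kb beyond its 3′ end, in intron 2 of 8 of Cpm, a carboxypeptidase gene. It carried no repeat label and was given to Cpm. IgG peaks came no closer than 1330 kb.

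Mdm4 encodes the Mdm2 relative that binds p53 and blocks its activity. The gene spans chromosome 1 from 132986105 to 133030587 on the minus strand and was given 2 Seh1 peaks. The nearer peak, from 132975718 to 132975960, had its centre 49.6 kb downstream of the TSS in an ORR1C2 element, a long terminal repeat (LTR) of the ERVL-MaLR family. The other, from 132964475 to 132964717, was 60.8 kb downstream and carried no repeat label. Both were intergenic and past the gene, 10.3 and 21.5 kb beyond its 3′ end. Both were also 243 bp wide, the minimum of the Seh1 list, and their centres were 11.2 kb apart. From Mdm4 to the closest IgG peak were 564 kb.

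Among the cell cycle and stress genes, Ccng1 had the peak closest to a TSS. It encodes cyclin G1, a p53 target known to act back on p53 through Mdm2 and the phosphatase PP2A, and lies on chromosome 11 from 40748552 to 40755309 on the minus strand. The first Seh1 peak, from 40759971 to 40760213, was 4.81 kb upstream of the TSS in an MTE2a element, also of the ERVL-MaLR family. It was 243 bp wide. This peak is singled out as the nearest of the 11 to its TSS, and 7.28% of all Seh1 peaks lay nearer to theirs. The second, from 40830115 to 40830399 (285 bp), was 75 kb upstream in L1VL2, a LINE element of the L1 family.

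Ccng1 was also the gene given the IgG peak. This peak was 425 bp wide, from 41359766 to 41360190, intergenic and without a repeat label, and its centre was 605 kb upstream of the TSS. Only 7.77% of IgG peaks lay over 500 kb from a TSS. The nearest Seh1 peak was 530 kb from it.

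Gadd45a and Gadd45g encode stress sensors that bind cell cycle and kinase proteins, and each was given 1 Seh1 peak upstream. Gadd45g is also known as a gene expressed in cells that leave the neural progenitor state. Its peak, on chromosome 13 from 51831654 to 51831960, was 307 bp wide, 14.9 kb upstream and without a repeat label. The Gadd45a peak, on chromosome 6 from 67135123 to 67135365, had the minimum width of 243 bp. It was the farthest of the 11, at 97.8 kb upstream, and carried no repeat label. Gadd45a spans positions 67035096 to 67037407, and Gadd45g spans 51846675 to 51848475. The nearest IgG peak lay 104 kb from Gadd45a, in an intron of Gng12, and 1970 kb from Gadd45g.

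Sesn2, which encodes sestrin 2, an inhibitor of mTORC1 through the GATOR2 complex of which Seh1 is itself a subunit, had no row in either list. It lies on chromosome 4 from 132492804 to 132510456 on the minus strand. Seh1 peaks were nevertheless present nearby: 4 lay within 100 kb, all beyond its 3′ end. The nearest, from 132479179 to 132479469 (291 bp), was 13.5 kb from Sesn2 and was given to Med18, a subunit gene of Mediator, at 15.4 kb from the Med18 TSS. The next were 15.7 kb away, in a B1_Mus1 element, and 46.4 kb away, both given to Med18 as well. The last, 61.5 kb away in an MTB_Mm element, was given to Phactr4. With 18 Seh1 peaks within 500 kb, Sesn2 had the most of the 10 genes.

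Among the apoptotic genes, Bbc3, which encodes Puma, a BH3-only protein that frees Bax to permeabilise mitochondria, lies on chromosome 7 from 16308398 to 16318334 on the plus strand. It was given 2 Seh1 peaks, both within the neighbouring gene Sae1, which encodes a subunit of the SUMO-activating enzyme. The peak from 16328696 to 16329032 was 337 bp wide, the widest of the 11, and lay 19.3 kb downstream of the Bbc3 TSS in intron 8 of 8 of Sae1, in a B1_Mus1 element. The peak from 16340828 to 16341095 was 268 bp wide and lay 31.4 kb downstream in intron 6 of 8, without a repeat label. These were the only 2 of the 11 peaks whose closest gene body was another gene; for the other 9 it was the gene itself. Bbc3 was 831 kb from the closest IgG peak.

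Pmaip1, which encodes the BH3-only protein Noxa, was given 3 Seh1 peaks, the most of the 10 genes. It lies on chromosome 18 from 66458604 to 66465558. All 3 peaks were intergenic and upstream. The nearest (66417092 to 66417334, 243 bp) and the next (66412609 to 66412852, 244 bp) were 41.4 and 45.9 kb from the TSS, with centres 4.48 kb apart. The third (66382935 to 66383259, 325 bp) was 75.5 kb upstream in a CT-rich low-complexity sequence. A further Seh1 peak, 395 bp wide, lay 95.3 kb on the other side of Pmaip1 and was given to Gm9926. The nearest IgG peak was 1110 kb away.

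Bax encodes the pore-forming protein of mitochondrial apoptosis. The gene, on chromosome 7 from 45461695 to 45466903, had no row in either list and no peak of either library within 100 kb. The nearest Seh1 peak was 229 kb away, in exon 11 of 12 of Tead2, and was given to Cd37. Bax had 68 other protein-coding genes within 500 kb, the most of the 10, and 2 Seh1 peaks there, the fewest.

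Taking every peak within 100 kb of either end of a gene, whichever gene it was given to, 9 of the 10 genes had a Seh1 peak and Bax had none. This held for 76.4% of all protein-coding genes. Within 50 kb of either end, 8 of the 10 genes had one, all but Gadd45a and Bax, beside 57.6% of all protein-coding genes. Within 100 kb there were 20 Seh1 peaks, of which 11 were given to the gene itself and 9 to another gene. No IgG peak lay within 50 kb of any of the 10 genes, beside 17.5% of all protein-coding genes with one. Nor did any lie within 100 kb, whereas 27.2% of all protein-coding genes had one; 0 of 10 allows a share of up to 30%. The median number of Seh1 peaks within 500 kb was 8 for the 10 genes and 8 for all protein-coding genes. For IgG peaks the medians were 0 and 1.

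The 10 genes differ in the room between their neighbours. This room only approximates where the nearest-TSS rule gives a peak to a gene, because that rule uses start sites and not gene ends. Both Bbc3 peaks, for instance, lay outside this room, inside Sae1, 10.5 and 22.6 kb beyond the end of Bbc3. The territory of a gene was taken as its length plus an equal share of the gap to the protein-coding gene on either side. Across all protein-coding genes, the share given a Seh1 peak was 11.7% in the quartile with the smallest territories, then 22.9%, 35.9% and 56.9%. Trp53 (15.5 kb) and Bax (9.14 kb) fell in the first quartile, and neither was given a peak. Of Mdm2 (34.1 kb), Sesn2 (42.1 kb) and Bbc3 (21.7 kb) in the second quartile, Bbc3 was. Mdm4 (75.1 kb) was in the third quartile. Gadd45a (124 kb), Pmaip1 (286 kb), Gadd45g (356 kb) and Ccng1 (588 kb) were in the fourth, and all 4 were given a peak. Bbc3 was thus the gene with a peak that had the smallest territory. How far territory sets the count of 6 genes was not tested.

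**Figure D2:**
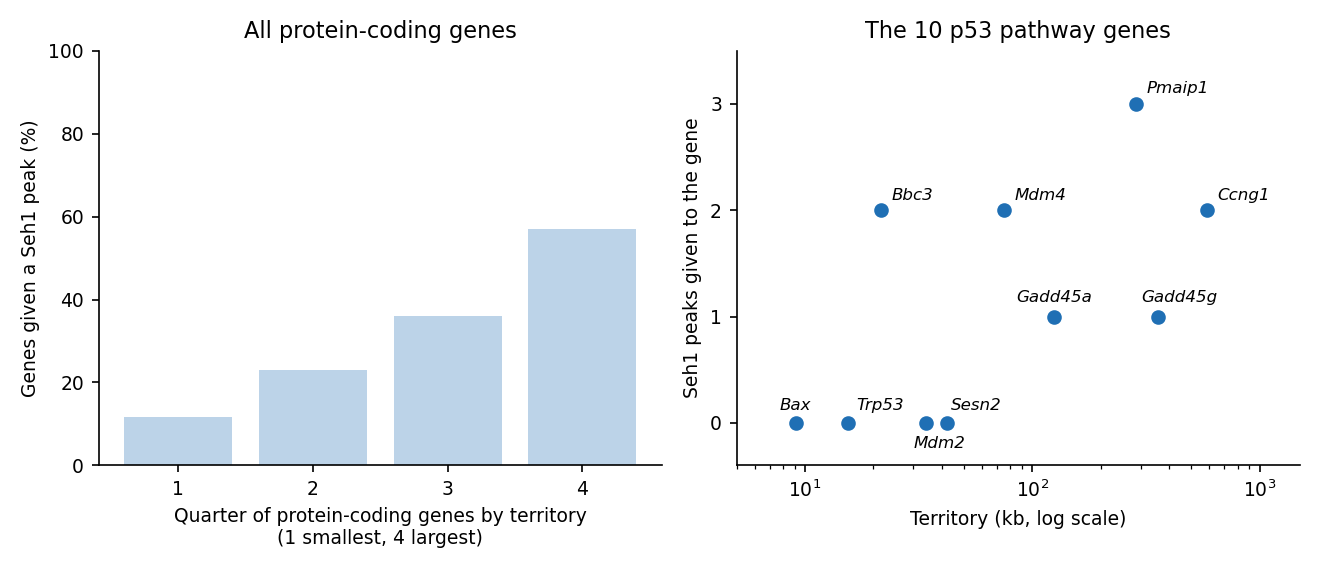
Left, share of all protein-coding genes given at least 1 Seh1 peak, in percent, by quartile of territory size. Right, number of Seh1 peaks given to each of the 10 genes (points) against its territory in kb on a log scale; the genes with 0 peaks are Bax, Trp53, Mdm2 and Sesn2, at 9.14 to 42.1 kb.

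Some of the genes held several peaks. At least 2 Seh1 peaks were given to 4 of the 10 genes, Mdm4, Ccng1, Bbc3 and Pmaip1, beside 13.1% of all protein-coding genes. At least 3 were given to Pmaip1 alone, beside 6.08%. Ccng1 and Pmaip1 were in the fourth quartile of territory, Mdm4 in the third and Bbc3 in the second. How far territory sets these counts was not tested, and no interval was taken for them. Peaks given to one gene share its surroundings and are not replicates. The intervals given below over the 11 Seh1 peaks count each peak as independent, although the peaks belong to 6 genes. They may therefore be too narrow.

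The distances of the 11 peaks lay within the body of the Seh1 list, whereas 5 of the 11 had its minimum width of 243 bp. The median distance of the 11 from the TSS was 45.9 kb (4.81 to 97.8 kb), and that of all Seh1 peaks was 37.8 kb. All 11 were within 100 kb, as were 74.8% of all Seh1 peaks. Counted by gene, 6 of 10 had a Seh1 peak within 100 kb of the TSS, beside 29.1% of all protein-coding genes, and 0 of 10 had an IgG peak there, beside 8.9%. Within 10 kb there was 1, the Ccng1 peak, or 9.09% (interval 0.230 to 41.3%), beside 18.1% of all Seh1 peaks. Counted by gene, 1 of 10 had a Seh1 peak within 10 kb of the TSS, beside 9.68% of all protein-coding genes, and 0 of 10 had an IgG peak there, beside 2.36%. Upstream peaks made up 7 of the 11 and 43.3% of all Seh1 peaks. The upstream ones belonged to Ccng1, Gadd45a, Gadd45g and Pmaip1, and the downstream ones to Mdm4 and Bbc3.

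Widths ran from 243 to 337 bp with a median of 244 bp, and the whole list had a median of 266 bp. The minimum width of 243 bp was found for 5 of the 11 peaks, 45.5% (interval 16.7 to 76.6%), and for 27.2% of all Seh1 peaks. Both Mdm4 peaks, the near Ccng1 peak, the Gadd45a peak and 1 Pmaip1 peak were of this width. The widest, in Sae1, was wider than 80.8% of the list. A peak wider than the minimum was given to 4 of the 10 genes, Ccng1, Gadd45g, Bbc3 and Pmaip1, beside 26.2% of all protein-coding genes.

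**Figure D3:**
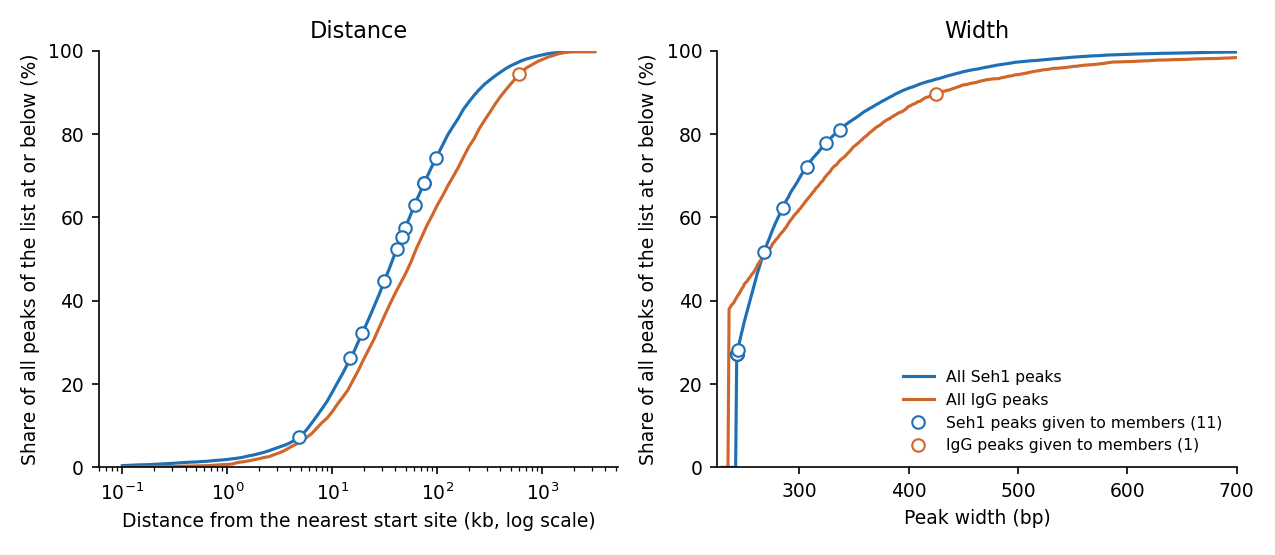
Cumulative share of all Seh1 peaks and all IgG peaks, in percent, by distance from the nearest start site (left, kb on a log scale) and by width (right, bp). Circles mark the 11 Seh1 peaks and the 1 IgG peak given to the 10 genes; the Seh1 circles run from 4.81 to 97.8 kb and from 243 to 337 bp, and the IgG circle is at 605 kb and 425 bp.

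By annotation, 9 of the 11 peaks were intergenic and 2 were intronic, beside 54.3% and 36.8% of all Seh1 peaks. None was in an exon, a class with 5.37% of the list, and 0 of 11 allows a share of up to 27.3%. A repeat lay at the centre of 5 of the 11 (45.5%, interval 16.7 to 76.6%) and of 39.8% of all Seh1 peaks. The ERVL-MaLR family held 2 of the 11, near Mdm4 and Ccng1, and 4.36% of the list. By name, MTE2a was at 0.124% of Seh1 and 0.132% of IgG peaks. ORR1C2 was at 0.0683% and 0.0376%, L1VL2 at 0.273% and 0.395%, B1_Mus1 at 0.683% and 0.320%, and CT-rich sequence at 0.155% and 0.0565%. The repeats of the 11 peaks therefore also occurred in the IgG list. How reads with several matches in the genome were handled is unknown, so a peak in a repeat may belong to another copy of it.

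No overlap of 1 bp or more with an IgG peak was found for any of the 11. Such overlaps were rare in the whole list (60 of 16113 peaks, 0.372%), so this sets the 11 apart little. The nearest IgG peak was 204 kb away for the Gadd45a peak and between 413 and 1960 kb away for the others. The median was 852 kb, and that of all Seh1 peaks was 260 kb. The 11 peaks belong to 6 genes, and peaks of the same gene had similar values, such as 852 and 864 kb for Bbc3. The median thus rests on few loci.

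RefSeq promoter windows (GRCm38.p6) of 250 bases before to 50 after the start were at hand for 9 of the 10 genes, in 12 windows, and none of the 12 overlapped a Seh1 peak, whereas 0.6% of all RefSeq windows did. The windows were searched on both strands for the p53 consensus decamer, the sequence of 10 bases that a p53 dimer binds. It was found in 5 of the 12 windows and in 8.36% of 32851 RefSeq windows of this length. Counted by gene, 5 of the 9 had a match. Bbc3 and Mdm4 have more than 1 window each, and windows of Bbc3 overlap, so the 12 are not independent. The matches are shown to place the p53 consensus relative to the start site of each window. Each is given 5′ to 3′ on the strand of the gene, with the match in capitals and up to 10 bases on either side.
Trp53 (chr11:69580274-69580303, plus strand): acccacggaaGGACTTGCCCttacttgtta
Mdm2 (chr10:117710925-117710954, minus strand): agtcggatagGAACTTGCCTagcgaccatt
Ccng1 (chr11:40755452-40755481, minus strand): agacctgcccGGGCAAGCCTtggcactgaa
Gadd45a (chr6:67037428-67037457, minus strand): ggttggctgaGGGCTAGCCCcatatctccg
Bax (chr7:45467080-45467109, minus strand): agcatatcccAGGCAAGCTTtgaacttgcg

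The first base of the match lay 75 bases before the start of Trp53 and 186 before that of Mdm2. It lay 185 before Ccng1, 40 before Gadd45a and 201 before Bax. A full site, a pair of such matches with at most 13 bases between them, was found in 0 of the 12 windows and in 0.0731% of all. Sequence outside the windows, which includes most of each gene, was not searched. The shorter motif CATG, which can form the centre of a decamer, was in 3 of the 12 windows and in 61.1% of all windows. CANNTG, the E-box, which can overlap CATG, was in 9 of 12 and in 72.3% of all. Of the genes with a match, Ccng1 and Gadd45a were given Seh1 peaks, whereas Trp53, Mdm2 and Bax were not. Of those with windows but no match, Mdm4, Gadd45g and Bbc3 were given Seh1 peaks and Sesn2 was not. Over all protein-coding genes the share was 31.9%. The Gadd45a peak lay 97.8 kb from the TSS, and a relation between match and peak was not tested. A match is a run of letters and does not show binding of p53.

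The wider pathway was described with 80 further genes in 5 lists. Seh1 peaks were given to 25 of the 80 (31.2%), close to the 31.9% of all protein-coding genes, and IgG peaks to 11 (13.8%, beside 11.3%). Both libraries gave peaks to 7 of the 80 and to 6.42% of all protein-coding genes. By list, Seh1 peaks were given to 3 of 11 p53 family and partner genes, 3 of 16 upstream kinases and ubiquitin regulators, 7 of 18 cell cycle and repair targets, 9 of 26 apoptotic effectors and 3 of 9 metabolic and stress targets. The exact interval of each list held the background share.

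**Figure D4:**
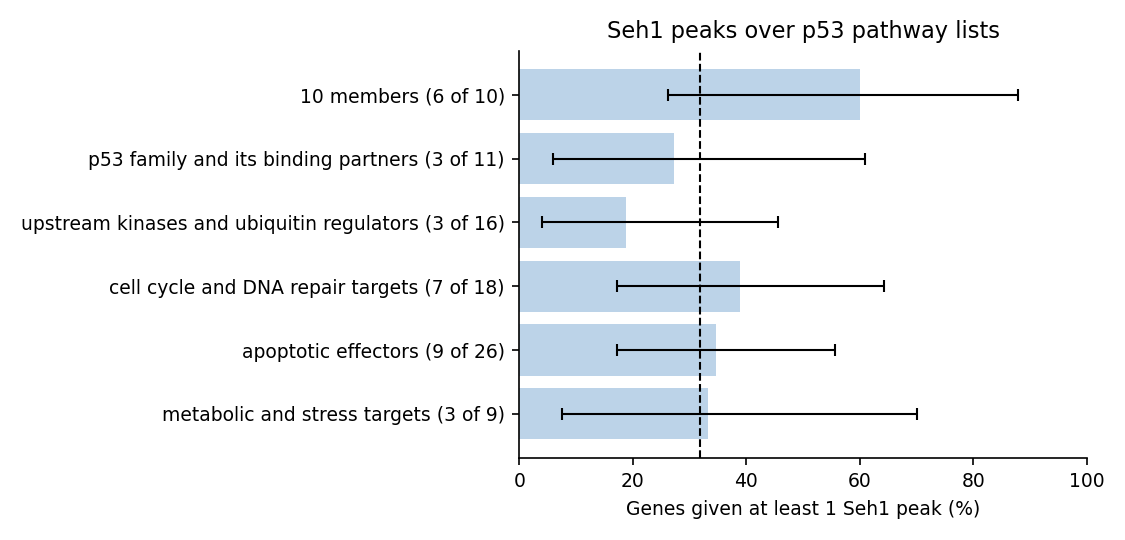
Share of genes given at least 1 Seh1 peak, in percent, for the 10 genes and the 5 further lists; error bars are 95% exact binomial intervals, which cover counting error only. The dashed line is the share of all protein-coding genes, 31.9%, and it lies inside all 6 intervals.

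Of these 80 genes, 5 (6.25%) had a Seh1 peak within 10 kb of the TSS, beside 9.68% of all protein-coding genes. The closest was 805 bp upstream of Cdc25c, a mitotic phosphatase gene, 390 bp wide and in the promoter class. Cdkn1a, which encodes p21, followed with a peak of 466 bp in exon 2 of 3, 4.86 kb downstream, and also had an IgG peak 9.24 kb downstream. The others were Ercc5, a nucleotide excision repair gene (7.30 kb, intron 1), the anti-apoptotic gene Bcl2l1 (7.72 kb upstream, in RMER10A) and the death receptor gene Tnfrsf10b (8.74 kb, exon 5 of 8). Tnfrsf10b had a further Seh1 peak 9.18 kb upstream, 358 bp wide, in intron 2 of 2 of 4930480K23Rik at a simple repeat.

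A Seh1 peak in an exon or intron of the own transcript was held by 12 of the 80 further genes (15%), by 0 of the 10 genes and by 13.8% of all protein-coding genes. Besides Cdkn1a, Ercc5 and Tnfrsf10b, the rule named Usp10, a deubiquitinase that acts on p53 (intron 1), Ep300, a histone acetyltransferase and p53 coactivator (exon 2 of 31), and Sesn1, a sestrin (intron 7 of 9). It also named the translesion polymerase Polk (intron 5 of 12), the damage sensor Xpc (intron 10 of 15) and Bcl2l1 (intron 2 of 2). The other such genes, farther from the TSS, were the p53 relative Trp63, with 2 peaks (introns 1 and 4 of 12), the caspase gene Casp8 (intron 7 of 8) and the damage kinase gene Atm (intron 37 of 62). For IgG, the rule named Rpl5, a ribosomal protein gene (3.20 kb upstream), Trp63 (5.81 kb) and the caspase gene Casp2 (7.35 kb). The remaining genes were Cdkn1a, Sesn1 (25.3 kb) and Ep300 (34.1 kb).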

How the data were processed

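Peaks of the Seh1 and the IgG library were used as deposited, 1 list per library and none pooled. Per the file headers, the authors annotated them with HOMER annotatePeaks.pl on mm10. Per the submitters' processing notes, Bowtie2 and HOMER were used, with no version stated. Human builds are listed there too, but headers and genes are mouse. No source used here gives the peak caller, its threshold or read filters. Peak scores as deposited were 0 throughout, so depth is unknown. The deposited positions and distances are in bp.

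Rows were taken by symbol for the 10 genes. Gene positions came from the RefSeq table of GRCm38.p6, the assembly of mm10, after 394 genes below 3 Mb (Y excepted) were removed, which left 49603. Tables were computed with Python 3.11.15, pandas 2.3.3 and scipy 1.17.1, and overlap and motif searches were tested on simulated data. Intervals are 95% Clopper-Pearson and, like the limit of 3 counts at 0, cover counting error only. Where they are over peaks, they do not allow for peaks that share a gene. No test across conditions was made.

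The genes and lists were chosen with earlier results of these data known. Named further genes were those with a peak in their own transcript or within 10 kb of the TSS. A limit of 10 per library by distance was planned, but all 13 such genes for Seh1 and all 6 for IgG were named. All 80 matched the table.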

Additional observations from a re-analysis of the deposited data

How the results depend on the processing

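Each count was repeated under every alternative fixed for it. The count of 6 genes with a Seh1 peak was 4 with peaks wider than the minimum, 6 within 100 kb and 1 within 10 kb of the TSS. With any peak centre in the gene or within 50 kb of its ends it was 8: Trp53, Mdm2 and Sesn2 came in and Gadd45a dropped out. The 11 Seh1 peaks became 6 with wider peaks and 1 within 10 kb. The 25 further pathway genes became 20 with wider peaks, 22 within 100 kb and 5 within 10 kb. The 1 gene and 1 peak of the IgG list became 0 within 100 kb, 0 within 10 kb and, for the gene, 0 with the 50 kb rule. The 100 kb rule left the Seh1 counts for the 10 genes and their peaks as they were. The count of 0 overlaps with IgG was 0 with the 50% rule and with centres within 10 kb, where 4.17% of all Seh1 peaks had an IgG peak. The width and TSS distance rules count fewer peaks. The 50 kb rule counts peaks by position, whichever gene they were given to. Depth is unknown and each group had 1 library, so a gene without a row may lie below what the caller could detect. No paired analysis was possible because each group had 1 library.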
